A study of Glycine max with 16 samples.

Results

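Soybean transcripts with no gene name of their own were examined in seeds of cultivar MG/BR 46 (Conquista), which is susceptible to chlorophyll retention, at 3 stages of maturation with and without stress. A probe set was included when its name started with Gma, at least 1 of the 6 groups had a mean above 3 on the log2 scale, and its stressed mean was at least 1.2 above the non-stressed mean at R6 and again at R8. Probe sets paired with a gene whose symbol is more than a LOC placeholder were left out. Of 19194 soybean probe sets above the level limit, 205 met both differences, 21 of these were left out for their gene symbol, and 184 remained. The transcripts were thus chosen by their measured R6 and R8 differences, which are given as values with no test.

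The samples were whole seeds, seed coat and embryo together. Stressed plants spent late seed filling and maturation in a greenhouse that averaged 39.5 °C by day, with water only at wilting. Heat, drought and the change of growing place thus cannot be told apart. Non-stressed plants stayed in the polytunnel with free water supply. The arrays comprised stressed R6 (3), non-stressed R6 (3), stressed R7 (3), non-stressed R7 (2), stressed R8 (3) and non-stressed R8 (2) seeds, each array being a separate biological sample that pooled seeds of several plants.

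R6 is the stage of full-size green seeds, R7 the beginning of maturity, when reserve filling ends and the seed yellows, and R8 full maturity, when the seed is dry. Transcripts stored in a mature seed are made before or during drying, and heat and drought during filling are known to alter both reserve synthesis and the timing of maturation. A LOC symbol is a placeholder in the RefSeq annotation for a gene given no symbol of its own, and by itself says nothing of the gene's function. The R7 seeds differed among themselves in how far chlorophyll loss had gone, and the study did not carry the R7 arrays into its own expression analysis.

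Seed identity and array quality were checked before the comparisons. Of 16 seed protein genes with a probe set, 15 exceeded a log2 signal of 3 in at least 1 group. Of the 2 seed coat genes, HPS did so in 3 groups and SCB1 only in non-stressed R6 seeds. Of the 2 leaf and pod genes with a probe set, VSPA was at background in every group, and CAB3, a chlorophyll-binding protein gene, had means of 3.63 to 8.32. The background level was taken as a log2 signal of 1.02, the highest per-array 95th percentile of probe sets for other organisms. At R7 the median log2 signal over ribosomal RNA probe sets was 9.05 ± 0.12 (SD, n = 3) in stressed seeds and 6.94 ± 0.90 (SD, n = 2) in non-stressed seeds. The log2 signal of the 3′ actin control exceeded that of the 5′ control by 2.45 ± 0.18 in stressed R7 seeds and 3.72 ± 0.76 in non-stressed R7 seeds, against 1.75 to 2.60 in the R6 and R8 groups. The part of these values in the R7 results was not tested. Stressed R6 replicate 3 had the lowest mean correlation with the other arrays of its group, 0.958.

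The 184 probe sets came from 158 clusters of source sequences, going by their names. Only 65 were paired with 1 gene each, 4 with several genes and 115 (62.5%) with none, beside 68.5% without a gene among all soybean probe sets above the level limit. Through the pairs, 60 different genes were reached, and the RefSeq table for Glycine_max_v4.0 lists all 60 as protein coding. Only LOC100780605 carries a further name there, CYP71D8, a member of the cytochrome P450 family of haem-containing monooxygenases. The genes LOC100305352 and LOC100306165 follow each other in that table, and LOC100804511 and LOC102661758, which share the probe set GmaAffx.93215.1.S1_s_at, have 1 gene between them. Probe sets ending in _s_at, which can bind transcripts of more than 1 gene, made up 19.0% of the group, beside 12.4% of all soybean probe sets above the level limit.

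At R6 the transcripts had a median log2 signal of 6.15 in stressed seeds and 3.44 in non-stressed seeds. At R7 the medians were 4.96 in stressed seeds and 4.53 in non-stressed seeds, and at R8 they were 5.03 in stressed seeds and 2.78 in non-stressed seeds. The median of all soybean probe sets above the level limit stayed between 4.52 and 4.64 in all 6 groups. In whole seeds, a change in the number of cells of a type and a change in RNA per cell cannot be told apart.

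Marker genes of the seed's parts moved between the same groups. Both seed coat genes were lower under stress at R6, where HPS averaged 5.72 ± 0.48 in stressed seeds and 9.36 ± 0.31 in non-stressed seeds, and SCB1 1.84 ± 0.77 in stressed seeds and 5.72 ± 0.31 in non-stressed seeds (SD, n = 3 each). The summed seed coat signal, on the log2 scale, ran from 5.26 to 6.21 on stressed R6 arrays and from 9.22 to 9.82 on non-stressed R6 arrays. CAB3 averaged 6.65 ± 0.11 in stressed R6 seeds and 8.32 ± 0.13 in non-stressed R6 seeds (SD, n = 3 each).

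Of the 16 storage and seed protein genes, 9 had the higher mean in stressed seeds at R6, 2 at R7 and 15 at R8. Their summed signal ran from 15.67 to 15.75 on stressed R6 arrays, against 15.67 to 15.70 on non-stressed R6 arrays. At R7 it ran from 14.47 to 14.75 with stress, against 15.35 to 15.44 without, and at R8 from 15.05 to 15.08 with stress, against 13.94 to 14.20 without. GY1, a glycinin storage protein gene, averaged 10.77 ± 0.51 in stressed R7 seeds (SD, n = 3) and 12.76 ± 0.03 in non-stressed R7 seeds (SD, n = 2), and 12.91 ± 0.04 in stressed R8 seeds (SD, n = 3) and 10.39 ± 1.10 in non-stressed R8 seeds (SD, n = 2). The part of these markers in the levels of the 184 probe sets was not tested.

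**Figure D1:**
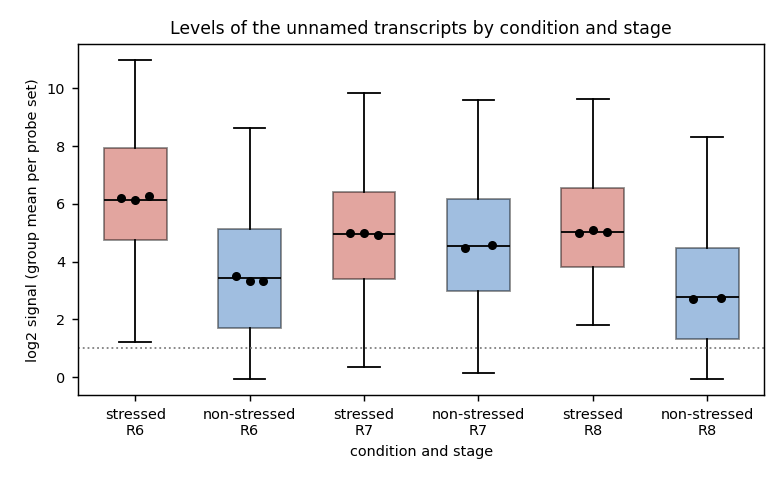
Log2 signal (group mean per probe set) of the 184 unnamed transcripts in each condition and stage, with boxes from the lower to the upper quartile, a line at the median, whiskers to the lowest and highest probe set, black points for the median on each array and a dotted line at the background level of 1.02. The stressed and non-stressed boxes lie close together at R7, with medians of 4.96 and 4.53, and apart at R6 and R8.

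The size of the difference set by the rule ranged widely. At R6 it had a median of 2.32 on the log2 scale, a fold of 4.99, and reached 7.57. At R8 the median was 1.88, a fold of 3.68, and the highest value 5.89. With group means below background set to the background level, the medians were 2.23 at R6 and 1.81 at R8. The difference was larger at R6 than at R8 for 123 probe sets and larger at R8 for 61. With the same floor it was at least 16-fold, 4 on the log2 scale, for 36 probe sets at R6 and for 9 at R8. Stressed and non-stressed arrays did not overlap for 179 of the 184 at R6, where 25.5% of all tested probe sets showed the same order without overlap, and for all 184 at R8, where the share was 31.5%. These counts follow from the rule and nothing is read from them.

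Stressed R6 seeds had the highest mean of the 6 groups for 106 probe sets and stressed R8 seeds for 42. For 20 probe sets the highest group was non-stressed R7 and for 16 it was stressed R7. The lowest group was non-stressed R8 for 95 probe sets and non-stressed R6 for 82. By the rule, non-stressed R6 and R8 seeds could not be highest, and stressed R6 and R8 seeds could not be lowest. These counts are given as a description and nothing is read from them.

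**Figure D2:**
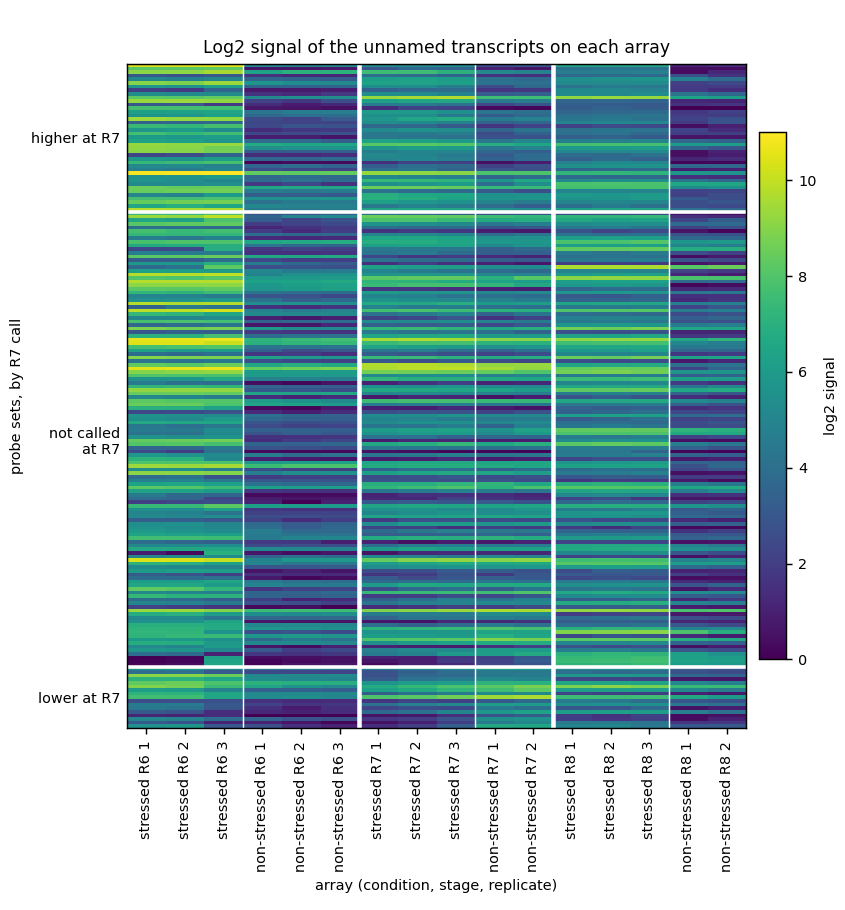
Log2 signal of the 184 unnamed transcripts (1 line per probe set) on each of the 16 arrays, in columns by stage with stressed arrays left of non-stressed arrays, and in blocks by the R7 call, with 41 higher, 126 not called and 17 lower. Non-stressed R6 and R8 columns are darker than the stressed columns beside them, and the R7 columns differ less.

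GmaAffx.69635.1.S1_at, which is paired with no gene, had a mean of the R6 and R8 differences of 6.08 as measured, and of at least 5.27 with the background level as floor. By that bound GmaAffx.66167.1.S1_at (at least 5.54), GmaAffx.73282.1.S1_at (5.38) and GmaAffx.787.1.A1_at (5.32) stood above it. Its log2 signals at R6 were 7.32, 7.54 and 7.82 in stressed seeds, against 0.20, 0.32 and 0.26 in non-stressed seeds. At R7 they were 1.53, 2.16 and 2.13 in stressed seeds, against 0.48 and 0.84 in non-stressed seeds. At R8 they were 4.80, 5.25 and 5.04 in stressed seeds, against 0.18 and 0.14 in non-stressed seeds. The transcript was thus at background in every non-stressed group, and a fold can only be bounded, at least 92.8-fold higher in stressed seeds at R6 and at least 16.1-fold at R8, with the background level of 1.02 in place of the non-stressed mean. At R7 the fitted difference was 1.28 ± 0.20 (SE) on the log2 scale (limma, adjusted p = 0.00033), but against the background level the fold was at least 1.89, short of the 2-fold limit.

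GmaAffx.52783.1.S1_at, paired with LOC100527311, had the largest R6 difference, 7.57. Its signals at R6 were 8.21, 8.19 and 8.28 in stressed seeds, against 0.64, 0.56 and 0.76 in non-stressed seeds, at least 148-fold higher. At R8 they were 4.03, 4.19 and 4.04 in stressed seeds, against 0.42 and 0.36 in non-stressed seeds, at least 8.38-fold higher. All non-stressed arrays were below the background level, at R7 too.

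GmaAffx.66167.1.S1_at showed the same contrast at R6 and R8 but none at R7. At R6 it had signals of 8.34, 8.50 and 8.72 in stressed seeds, against 1.45, 1.93 and 2.35 in non-stressed seeds. At R8 it had 5.30, 5.57 and 5.62 in stressed seeds, against 0.46 and 0.33 in non-stressed seeds. At R7 the arrays overlapped near background, with 0.85, 1.23 and 1.17 in stressed seeds, against 0.91 and 0.83 in non-stressed seeds (difference 0.22 ± 0.22 SE, limma adjusted p = 0.42).

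GmaAffx.73282.1.S1_at had the largest R8 difference, 5.89. At R8 its signals were 7.14, 7.22 and 7.34 in stressed seeds, against 1.46 and 1.21 in non-stressed seeds. At R6 they were 9.32, 9.21 and 9.96 in stressed seeds, against 3.58, 5.0 and 5.30 in non-stressed seeds. In contrast to the probe sets above, it was well above background in non-stressed R7 seeds, at 7.55 and 7.30, against 8.54, 8.41 and 8.30 in stressed R7 seeds. This R7 difference of 0.99 ± 0.37 (SE) had an adjusted p of 0.04 in limma and missed the 2-fold limit.

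The other 8 of the 12 probe sets with the largest mean differences as measured had means of the R6 and R8 differences between 4.29 and 5.32. No R7 call was made for Gma.17942.1.S1_s_at, GmaAffx.86053.1.S1_at (LOC100819405), GmaAffx.91273.1.S1_at (LOC100305823) and Gma.17902.1.S1_s_at (LOC100527077), which had R7 differences of 0.74, -0.34, 0.71 and 0.63. GmaAffx.787.1.A1_at, GmaAffx.3728.1.A1_at and Gma.15698.1.A1_at (LOC100500480) rose at R7 by 2.63, 1.39 and 1.86. Gma.4937.1.S1_s_at was called higher at R7 with a fitted difference of 1.68, but its non-stressed R7 mean was below background and the fold was at least 1.85, short of the 2-fold limit.

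In 11 probe sets the transcript was at or below the background level without stress at both R6 and R8. Their stressed means ran from 1.2 to 8.23 at R6 and from 1.90 to 5.03 at R8. At R7, 5 of the 11 were at background in non-stressed seeds too and 3 were at background in stressed seeds. Of the 11, 4 were called higher and 1 lower at R7, beside 6.62% and 11.9% of all tested probe sets. Among the 4, GmaAffx.69635.1.S1_at and Gma.4937.1.S1_s_at did not reach the 2-fold limit against the background level. The 1 called lower, Gma.6727.1.S1_at (CYP71D8), passed the level limit only through its non-stressed R7 mean. GmaAffx.93611.1.S1_s_at (LOC100500525) was at background in both conditions at R7, with 0.47, 0.37 and 0.19 in stressed seeds, against 0.19 and 0.09 in non-stressed seeds. At R8 the same probe set had 4.37, 4.35 and 3.59 in stressed seeds, against 0.20 and 0.13 in non-stressed seeds. At R6 it had 2.56, 1.94 and 4.10 in stressed seeds, against 0.24, 0.25 and 0.22 in non-stressed seeds. No probe set of the 184 was at background in stressed R6 or stressed R8 seeds. This follows from the rule's limit of 1.2, as the lowest non-stressed means were -0.06 at R6 and -0.07 at R8.

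The R7 arrays entered the rule only through the level limit, so R7 allowed a test of the stress difference. The transcripts were chosen with earlier results of these data known, so the test is not fully independent of their choice. Stressed minus non-stressed at R7 had a median of 0.36 over the 184 probe sets and ran from -4.24 to 2.63, beside a median of -0.05 over all tested probe sets. The difference was above 0 for 123 of the 184 (66.8%, beside 46.8% of all tested). A call required an adjusted p of at most 0.05 in limma and a 2-fold change. By that measure 41 probe sets (22.3%) rose, beside 6.62% of all tested probe sets, and 17 (9.24%) fell, beside 11.9%. The remaining 126 were not called. The stressed arrays lay wholly above the non-stressed arrays for 97 probe sets, where 28.6% of all tested did, and wholly below for 38, where 35.3% did.

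**Figure D3:**
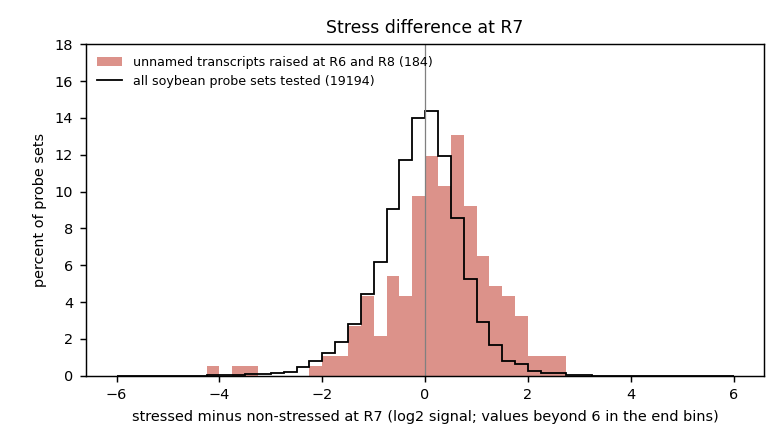
Stressed minus non-stressed log2 signal at R7, as percent of probe sets per bin, for the 184 unnamed transcripts (filled) and all 19194 soybean probe sets tested (line). The filled bars sit to the right of the line, with a median of 0.36 beside -0.05.

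Centring every array on its median raised all R7 differences by 0.11. With that scaling 49 of the transcripts were higher and 13 lower at R7. Over all tested probe sets the split was 1633 higher and 1914 lower with it, and 1270 higher and 2293 lower without it, so that the share of higher calls was 46.0% with centring and 35.6% as deposited.

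The R7 difference was smaller than both other differences in 177 of the 184 probe sets. It lay between them in 4 and above both in 3, namely Gma.249.1.S1_at, GmaAffx.61571.2.S1_at and GmaAffx.82042.1.S1_at. That order is partly set by the rule, which put a lower limit on the R6 and R8 differences alone. Among the probe sets the R7 difference had a Spearman rho of 0.31 with the R6 difference and 0.32 with the R8 difference (n = 184 probe sets on the same arrays, both truncated by the rule, given as a description).

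**Figure D4:**
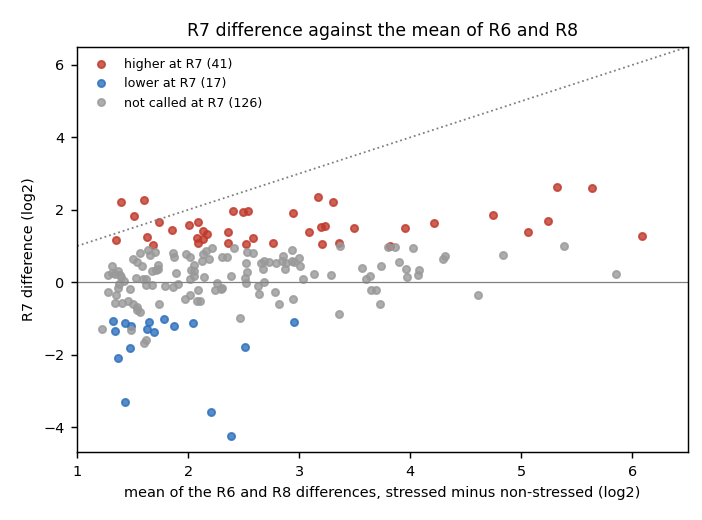
R7 difference (stressed minus non-stressed, log2 signal) against the mean of the R6 and R8 differences for each of the 184 probe sets, coloured by the limma call at R7; the dotted line marks equal values and the grey line 0. Nearly all points lie below the dotted line, and the 17 lower calls lie at -1.02 and below.

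The smaller R7 difference went with levels in both conditions. Without stress, the R7 mean was above both the R6 and R8 means for 118 probe sets (64.1%), beside 22.7% of all tested, and below both for 6 (3.26%), beside 17.4%. Under stress, the R7 mean was below both other stages for 77 (41.8%), beside 23.5%, and above both for 24 (13%), beside 25.2%. The median change between stages was 1.2 for R7 minus R6 and -1.46 for R8 minus R7 in non-stressed seeds. In stressed seeds it was -1.07 for R7 minus R6 and 0.14 for R8 minus R7. These counts use the R6 and R8 levels that chose the probe sets and are given without a test.

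The 41 transcripts that rose at R7 came from 39 clusters, and 11 of them were paired with a gene. Their fitted rises ran from 1.00 to 2.63 on the log2 scale, with no overlap between arrays for any of them. In 3 of them the non-stressed R7 mean was at background, and 2 of these, GmaAffx.69635.1.S1_at and Gma.4937.1.S1_s_at, did not reach a 2-fold rise against the background level. Their median level was 5.25 in stressed R7 seeds and 3.63 in non-stressed R7 seeds. At R7, 31 of them also reached the limit of 1.2 that was set for the other stages.

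GmaAffx.787.1.A1_at rose most at R7. Its signals were 5.37, 5.32 and 5.36 in stressed seeds, against 2.51 and 2.93 in non-stressed seeds, a rise of 2.63 ± 0.14 (SE) or 6.19-fold (limma, adjusted p = 3e-07). The R6 signals were 10.42, 10.40 and 10.45 in stressed seeds, against 5.11, 4.95 and 5.17 in non-stressed seeds. At R8 it had 6.55, 6.53 and 6.60 in stressed seeds, against 1.09 and 1.42 in non-stressed seeds. The stressed arrays lay above the non-stressed arrays at every stage, and in both conditions the level was highest at R6.

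GmaAffx.52783.1.S1_at (LOC100527311) had 2.96, 3.69 and 3.50 in stressed R7 seeds, against 0.99 and 0.60 in non-stressed R7 seeds. The rise was 2.59 ± 0.18 (SE), and since the non-stressed mean was at background the fold was at least 5.14 (limma, adjusted p = 2.8e-06). GmaAffx.79942.1.S1_at (LOC100306608) had 7.60, 7.57 and 7.07 in stressed R7 seeds, against 5.18 and 4.92 in non-stressed R7 seeds, a rise of 2.37 ± 0.27 (adjusted p = 4.6e-05). Its level declined with maturation in both conditions. The means for R6, R7 and R8 were 9.26, 7.41 and 4.73 in stressed seeds, against 6.86, 5.05 and 0.79 in non-stressed seeds.

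Gma.249.1.S1_at and GmaAffx.61571.2.S1_at had their largest difference at R7. Gma.249.1.S1_at had 4.03, 3.85 and 3.55 in stressed R7 seeds, against 1.59 and 1.51 in non-stressed R7 seeds, a rise of 2.26 ± 0.24 (SE, adjusted p = 3.1e-05), beside differences of 1.59 at R6 and 1.61 at R8. GmaAffx.61571.2.S1_at had 6.13, 6.29 and 6.05 in stressed R7 seeds, against 4.11 and 3.77 in non-stressed R7 seeds, a rise of 2.21 ± 0.23 (adjusted p = 3.2e-05). Neither is paired with a gene. GmaAffx.91881.1.S1_s_at, also without a gene, had 6.38, 6.34 and 6.27 in stressed R7 seeds, against 4.18 and 4.08 in non-stressed R7 seeds, a rise of 2.20 ± 0.17 (adjusted p = 6.3e-06).

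Among the other transcripts with a gene, LOC100500479, LOC100500480, LOC100306576 and LOC100306369 rose at R7 by 1.91, 1.86, 1.57 and 1.42, and both probe sets of LOC100809706 rose, by 1.66 and 1.06. LOC100500479 (Gma.4075.1.S1_at) had its highest mean in both conditions at R7. It had 8.21, 8.13 and 8.37 in stressed R6 seeds, against 5.11, 5.43 and 5.42 in non-stressed R6 seeds. At R7 it had 9.28, 9.53 and 9.69 in stressed seeds, against 7.57 and 7.60 in non-stressed seeds, and at R8 9.17, 9.29 and 9.27 in stressed seeds, against 6.36 and 6.18 in non-stressed seeds. This probe set and those of LOC100306576, LOC100306369 and LOC100809706 were picked after their values were seen.

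**Figure D5:**
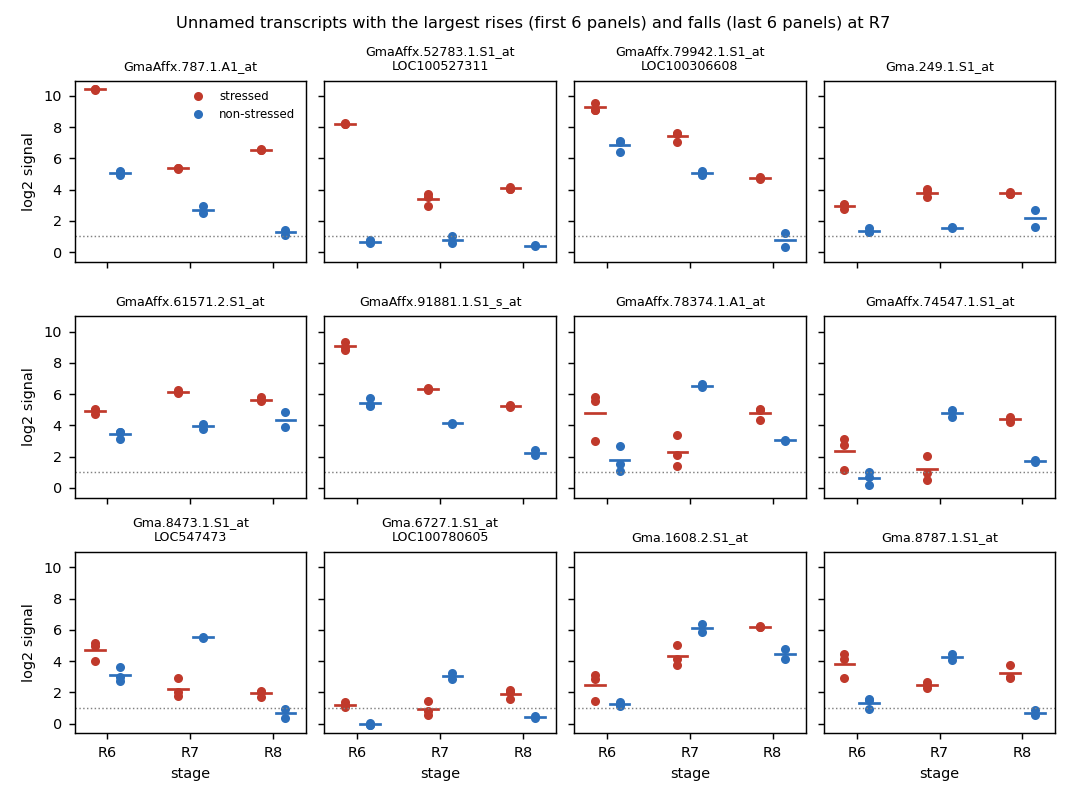
Log2 signal on each array for the 6 probe sets with the largest rise at R7 (first 6 panels) and the 6 with the largest fall (last 6 panels); stressed arrays (red) stand left of non-stressed arrays (blue) at each stage, bars are group means and the dotted line is the background level of 1.02. In the last 6 panels the non-stressed R7 points, at 2.83 to 6.63, lie above the stressed R7 points of the same panel.

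The 17 transcripts that fell at R7 came from 16 clusters, and 7 were paired with a gene. Their median level was 3.95 in stressed R7 seeds and 5.53 in non-stressed R7 seeds. In 14 of them the non-stressed mean was higher at R7 than at R6 and R8, beside 64.1% of the 184 and 22.7% of all tested probe sets. The rule and the lower call both favour that order, so nothing is read from it. Stressed R7 replicate 1 was the lowest stressed R7 array in all 17, beside 101 of the 184, and replicate 3 the highest in 15, beside 81 of the 184. At R6, stressed replicate 3 was the lowest stressed array in 15 of the 17, beside 87 of the 184. Without stressed R7 replicate 1, 9 of the 184 probe sets were called lower in place of 17.

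GmaAffx.78374.1.A1_at fell most at R7. Its signals were 1.43, 2.09 and 3.37 in stressed seeds, against 6.63 and 6.45 in non-stressed seeds, a change of -4.24 ± 0.73 (SE), 18.9-fold lower under stress (limma, adjusted p = 0.00052). At R6 it had 5.57, 5.80 and 3.00 in stressed seeds, against 2.71, 1.52 and 1.08 in non-stressed seeds. At R8 it had 5.01, 5.04 and 4.35 in stressed seeds, against 3.03 and 3.09 in non-stressed seeds. Non-stressed R7 seeds thus held more of it than any other group.

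GmaAffx.74547.1.S1_at followed the same course. At R7 it had 0.50, 0.96 and 2.06 in stressed seeds, against 4.52 and 5.01 in non-stressed seeds, a change of -3.59 ± 0.51 (SE, limma adjusted p = 0.00017). In R6 seeds the values were 3.13, 2.77 and 1.12 with stress, against 0.99, 0.69 and 0.17 without, all of the non-stressed arrays being below the background level. At R8 it had 4.39, 4.52 and 4.24 in stressed seeds, against 1.64 and 1.75 in non-stressed seeds.

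LOC547473 (Gma.8473.1.S1_at) had 1.76, 2.00 and 2.91 in stressed R7 seeds, against 5.49 and 5.57 in non-stressed R7 seeds, a change of -3.31 ± 0.37 (SE, adjusted p = 4.3e-05). LOC100780605 (CYP71D8, Gma.6727.1.S1_at) had 0.58, 0.77 and 1.47 in stressed R7 seeds, against 2.83 and 3.24 in non-stressed R7 seeds, a change of -2.10 ± 0.24 (adjusted p = 4.2e-05), at least 4.04-fold lower since the stressed mean was at background. CYP71D8 passed the level limit only through its non-stressed R7 mean, so its fall was favoured by the filter, and its mean was at most 1.90 in the other groups. At R6 its signals were 1.17, 1.04 and 1.40 in stressed seeds, against -0.10, 0.04 and -0.11 in non-stressed seeds.

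Gma.1608.2.S1_at and Gma.8787.1.S1_at changed by -1.81 ± 0.43 (SE, adjusted p = 0.0039) and -1.80 ± 0.38 (adjusted p = 0.0018) at R7. Gma.1608.2.S1_at had 3.74, 4.15 and 5.03 in stressed R7 seeds, against 5.84 and 6.39 in non-stressed R7 seeds. Gma.8787.1.S1_at had 2.30, 2.66 and 2.47 in stressed R7 seeds, against 4.48 and 4.07 in non-stressed R7 seeds. Both probe sets of LOC100170674 among the 184 also fell, by 1.10 and 1.2, and its 4 other probe sets above the level limit had R7 differences of -0.95 to -0.36.

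The change with maturation was tested as the mean of the 5 R8 arrays minus the mean of the 6 R6 arrays. These are the arrays that chose the probe sets. With arrays counted equally the array error of this contrast is uncorrelated with that of the R6 and R8 differences, but the contrast still takes in part of those differences, since stressed arrays are 3 of 5 at R8 and 3 of 6 at R6. The counts therefore describe the probe sets and are not independent of their choice. In limma, 75 of the 184 (40.8%) were lower at R8, beside 28.9% of all tested probe sets, and 42 (22.8%) were higher, beside 29.9%. With environments counted equally, 83 (45.1%) were lower, beside 29.1% of all tested, and 35 (19.0%) higher, beside 29.9%. The median change was -0.54, beside 0.12 over all tested. Within stressed seeds the median R8 minus R6 change was -1.09, beside 0.10 over all tested, and within non-stressed seeds -0.10, beside 0.15. The gap between the stressed and non-stressed medians takes in the R6 and R8 differences that chose the probe sets.

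The 75 transcripts lower at R8 had median levels of 4.28 in stressed and 1.84 in non-stressed R8 seeds, against 7.61 in stressed and 4.53 in non-stressed R6 seeds. LOC100306608 (GmaAffx.79942.1.S1_at) had the largest decline, -4.91 ± 0.18 (SE, adjusted p = 4.4e-12). At R8 it had 4.68, 4.71 and 4.79 in stressed seeds, against 0.33 and 1.25 in non-stressed seeds, and at R6 9.11, 9.12 and 9.57 in stressed seeds, against 6.43, 7.05 and 7.10 in non-stressed seeds. Gma.3066.1.S1_at changed by -4.74 ± 0.12 and was low in both conditions at R7, at 2.40, 1.75 and 1.96 in stressed seeds, against 1.32 and 1.12 in non-stressed seeds. GmaAffx.44081.1.A1_at changed by -4.51 ± 0.12, with means for R6, R7 and R8 of 7.32, 6.05 and 2.70 in stressed seeds, against 5.82, 6.72 and 1.11 in non-stressed seeds.

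The 42 transcripts higher at R8 had median levels of 6.54 in stressed and 4.74 in non-stressed R8 seeds, against 4.66 in stressed and 1.95 in non-stressed R6 seeds. The largest rises were on GmaAffx.69544.1.S1_x_at, GmaAffx.69544.1.S1_at and GmaAffx.69544.1.S1_s_at, by 5.78 ± 0.87, 5.62 ± 0.85 and 5.33 ± 0.84 (SE, adjusted p = 2e-05, 2e-05 and 3.4e-05). These 3 probe sets share 1 cluster and are 1 observation. GmaAffx.69544.1.S1_x_at had 7.52, 7.52 and 7.67 in stressed R8 seeds, against 6.36 and 6.14 in non-stressed R8 seeds.

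At R6 the same probe set depended on 1 array, with 0.07, 0.16 and 6.41 in stressed seeds, against 0.11, 0.32 and 0.48 in non-stressed seeds. The high value was stressed R6 replicate 3. Without that array the R6 difference of the 3 probe sets and of GmaAffx.69544.2.S1_at lay between -0.37 and -0.02, so that none of them would have been included, and the R8 rise of GmaAffx.69544.1.S1_x_at was 6.81. In all, 15 of the 184 fell below the R6 limit without stressed R6 replicate 3, and these 4 were the only ones at 0 or below. They and Gma.13340.1.S1_at were the 5 whose stressed and non-stressed R6 arrays overlapped.

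A total of 13 genes were represented by 2 or more of the 184 probe sets, and in 10 of these all probe sets had the same sign of the R7 difference. LOC100305943 had R6 differences of 6.30 and 4.26 on its 2 probe sets and R8 differences of 1.62 and 1.43. LOC100527077 had R6 differences of 5.25 and 5.39 and R8 differences of 3.33 and 1.91, and its R7 differences were 0.63 and -0.23. The 2 probe sets of LOC100305823 had R8 differences of 5.60 and 5.51 as measured and R6 differences of 3.03 and 1.96. On GmaAffx.91273.1.S1_at the non-stressed R8 mean of 0.30 was below background, so its R8 fold can only be bounded, at least 29.4.

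On GmaAffx.91273.1.S1_s_at, LOC100305823 had 8.41, 8.52 and 8.43 in stressed R8 seeds, against 2.31 and 3.59 in non-stressed R8 seeds. At R6 it had 10.52, 10.58 and 10.68 in stressed seeds, against 8.42, 8.59 and 8.88 in non-stressed seeds. At R7 the levels were 9.64, 9.89 and 9.95 in stressed seeds, against 9.56 and 9.20 in non-stressed seeds. The stressed level was highest at R6, and the non-stressed mean was 9.38 at R7 and 2.95 at R8.

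LOC100306165 gave nearly equal values on both its probe sets, with R6 differences of 2.89 and 3.18, R7 differences of 0.52 and 0.57 and R8 differences of 2.16 and 2.17. The neighbouring gene LOC100305352 had 2.45 and 3.01 at R6, then 0.64 and 0.84 at R7, then 1.92 and 2.05 at R8. LOC100527212 had 3.06 and 2.41 at R6, then 0.45 and 0.95 at R7, then 2.95 and 2.02 at R8. LOC547877 had 4.05 and 3.96 at R6 and 1.58 and 2.31 at R8, while its R7 differences, -0.62 and 0.23, had opposite signs. Another 14 probe sets above the level limit belonged to 9 of the genes but did not meet the limits, and all 14 were above 0 at both R6 (0.41 to 4.70) and R8 (0.47 to 1.46).

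The 5 probe sets with the brightest signal of the 184, by the mean over all arrays, are given for their values only, since signals of different probe sets do not rank transcripts by abundance. They were GmaAffx.18521.1.S1_at, Gma.3065.1.S1_s_at (LOC100808320), GmaAffx.91273.1.S1_s_at, Gma.4328.1.S1_at and GmaAffx.90929.1.S1_at (LOC100527212). GmaAffx.18521.1.S1_at had 10.63, 10.58 and 10.71 in stressed R6 seeds, against 7.14, 7.45 and 7.72 in non-stressed R6 seeds, and 9.14, 9.21 and 9.25 in stressed R8 seeds, against 6.63 and 7.25 in non-stressed R8 seeds. Gma.4328.1.S1_at had the highest group mean at stressed R6, 10.96, against 8.32 in non-stressed R6 seeds, and rose at R7 by 1.21 ± 0.11 (SE, adjusted p = 1.6e-05). Gma.3065.1.S1_s_at (LOC100808320) differed less between conditions, by 1.61 at R6, -0.52 at R7 and 1.30 at R8. The other probe set of LOC100808320 among the 184, Gma.5701.1.S1_at, had 1.76, 0.10 and 1.48, so the R7 signs were opposite.

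At the edge of the rule, Gma.13340.1.S1_at, GmaAffx.70842.1.S1_at and Gma.1608.2.S1_at lay just inside, with a smaller difference of 1.2 each. GmaAffx.92420.1.S1_s_at, Gma.3914.1.S1_at (LOC100306350) and GmaAffx.85335.1.S1_at lay just outside, with 1.2 (below the limit before rounding), 1.2 and 1.19.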

How the data were processed

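Total RNA of whole seeds was hybridised to the Affymetrix Soybean Genome array. The deposited table holds RMA values on the log2 scale, per the labels: the authors corrected background, normalized arrays and summarised probes per probe set. The RMA version is not given in the sources used here. Background removal makes folds of low signals uncertain, and signals near the upper end can hide changes. The study's methods describe more arrays than the 16 analysed here. Genes were assigned by the platform annotation, with symbols updated from RefSeq (Glycine_max_v4.0).

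The members and lists were chosen with earlier results of these data known. One mean per group was fitted to all 16 arrays with limma 3.58.1 (R 4.3.3), two-sided, with Benjamini-Hochberg adjustment over 19194 soybean probe sets. Calls needed an adjusted p of at most 0.05 and a 2-fold change. R7 stress and R8 against R6 were tested. A fold against a group at or below background is a lower bound, set by the background level. Errors of fitted changes are SE. Arrays have no depth, and 2 or 3 per group limit the precision.

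Probe sets named were the 12 with the largest mean R6 and R8 difference, the 6 largest R7 rises and falls among calls without overlap, the 5 highest levels, 3 on each side of the limit, 6 genes with several probe sets, the 3 largest called stage changes each way and 3 left-out named genes. Other names were picked after their values were seen. Alternatives were scaling, weights, limits, a replicate block and leaving out each array. The fit was tested on simulated data. Promoter and protein sequences were not analysed here. Nodule markers had no probe set.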

Additional observations from a re-analysis of the deposited data

Results flagged for a closer look

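Among the transcripts named, 9 were higher in stressed seeds at R6 and R8 and lower in stressed seeds at R7, with no overlap between the arrays of the groups at any stage. The R7 differences, stressed minus non-stressed on the log2 scale, were -4.24 for GmaAffx.78374.1.A1_at, -3.59 for GmaAffx.74547.1.S1_at, -3.31 for Gma.8473.1.S1_at (LOC547473), -2.10 for Gma.6727.1.S1_at (CYP71D8), -1.81 for Gma.1608.2.S1_at and -1.80 for Gma.8787.1.S1_at. They were -0.67 for GmaAffx.44081.1.A1_at, -0.62 for Gma.12045.1.S1_at (LOC547877) and -0.52 for Gma.3065.1.S1_s_at (LOC100808320), 3 probe sets whose R7 difference missed the 2-fold limit. The other probe sets of LOC547877 and LOC100808320 among the 184 had R7 differences of 0.23 and 0.10, above 0. CYP71D8 passed the level limit only through its non-stressed R7 mean, so its fall at R7 was favoured by the filter. Its stressed R6 mean lay close to the background level of 1.02. The difference between the stages was not tested, since R6 and R8 chose the probe sets. Among all 184, 34 showed this order without overlap, and these 9 are those among the probe sets named by rule. The order at R6 and R8 was set by the rule, and at R7 the stressed arrays lay wholly below in 20.7% of the 184, beside 35.3% of all tested probe sets. They share the R7 arrays on which ribosomal RNA and actin signals also differed, and that part was not tested.

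Outside the soybean probe sets, 1 probe set for another organism, PsAffx.psHB025xE14f_at, met the same limits. Its log2 means were 2.63 in stressed R6 seeds and 0.17 in non-stressed R6 seeds, 0.10 in stressed R7 seeds and 0.21 in non-stressed R7 seeds, and 3.22 in stressed R8 seeds and 0.53 in non-stressed R8 seeds.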

How the results depend on the processing

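The 41 higher calls at R7 were 38 to 44 when each R7 array was left out in turn, with 32 of the 41 called in every setting run apart from a stricter level limit. The 17 lower calls were 9 to 19, with 8 called throughout, and 9 without stressed R7 replicate 1. A lone non-stressed R7 array was assumed to vary like the other groups. A member limit of 1.0 gave 278 probe sets with 30 lower at R7 and 73 higher at R8 than R6, and a limit of 1.5 gave 115 with 5 and 17. Medians centred gave a median R7 difference of 0.46 and a call for GmaAffx.73282.1.S1_at (1.10). GmaAffx.86053.1.S1_at ranged from -0.87 to 0.19 when each R7 array was left out, turning to 0.19 without non-stressed R7 replicate 2 and to 0.06 without stressed R7 replicate 1. GmaAffx.91273.1.S1_at was called (1.02) without non-stressed R7 replicate 1. The causes were not tested. Stage calls without each array were 32 to 53 higher and 65 to 87 lower, where the share of stressed arrays changes by construction, and 35 and 83 with environments counted equally. Leaving out each R6 or R8 array gave 174 to 194 probe sets. Same-numbered arrays had correlations of deviations from -0.22 to 0.36, so the numbers were not taken to pair the samples. The replicate block gave 40 higher and 15 lower calls at R7 and 43 higher and 76 lower calls at R8 against R6. Dim signals and 2 non-stressed arrays at R7 and R8 limit what can be called.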

Other observations

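The 21 probe sets left out for a gene symbol belong to named genes that met the same limits at R6 and R8. ICL1, isocitrate lyase of the glyoxylate cycle, was the first of them by the mean of both differences, on Gma.1746.1.S1_at. It averaged 6.72 ± 0.30 in stressed R6 seeds and 1.66 ± 0.25 in non-stressed R6 seeds (SD, n = 3 each), and 5.59 ± 0.33 in stressed R8 seeds (SD, n = 3) and 1.19 ± 0.06 in non-stressed R8 seeds (SD, n = 2). At R7 it rose by 1.43 ± 0.22 (SE, limma adjusted p = 0.00028), while its other probe set, Gma.1746.1.S1_s_at, had an R7 difference of 0.24 (adjusted p = 0.42). CYP82A2, a cytochrome P450, had a difference of 5.26 at R6, 0.16 at R7 and 1.31 at R8. The pathogenesis-related gene PR-10 had 3.49 at R6, 0.64 at R7 and 2.93 at R8 on Gma.6999.2.S1_s_at, which also pairs with LOC100101844. On GmaAffx.89772.10.A1_s_at, paired with PR-10 alone, the differences were 2.10, 0.76 and 1.94. GmaAffx.89772.10.S1_s_at, which pairs with both genes, had 2.88, 1.25 and 2.38 and was called higher at R7 (limma, adjusted p = 0.028). A probe set paired with LOC100101844 alone, Gma.6999.1.S1_x_at, was among the 184 and had 4.07, 0.96 and 3.65 at R6, R7 and R8, and the 2 genes cannot be told apart there. Of the 21, 4 (19.0%) were called higher at R7 by limma, beside 6.62% of all tested probe sets, and the R7 differences ran from -0.54 to 1.51 with a median of 0.43.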
